A study of Mus musculus with 12 samples.

Results

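Hepcidin and 7 other genes that handle iron in the liver were followed in RNA sequencing libraries of mouse hepatocytes from both ends of the liver lobule, in fasted and fed mice. The 8 genes were named by symbol: Hamp and Hamp2, which encode hepcidins, Trf (transferrin), Tfrc and Tfr2 (transferrin receptors), Slc40a1 (ferroportin), Fth1 (ferritin heavy chain) and Hfe (the haemochromatosis protein). They are 8 of 28030 genes listed, and all 8 were among the 12086 genes that passed a filter on low counts and were tested. All libraries came from wild-type (WT) female mice, 12 weeks old, on a normal chow, lab diet #5053. The mice had been trained for 3 days to fast for 16 h and feed for 8 h a day, and on the day of the experiment all were given food and drinking water with 20% sucrose for 4 h. Fasted mice then went 24 h without food or sucrose, and fed mice were killed at the end of the 4 h. Digitonin, a detergent that destroys the hepatocytes of one zone, was used to isolate hepatocytes of the central vein side (pericentral, PC) and of the portal side (periportal, PP). The groups were fasted PC, fed PC, fasted PP and fed PP, with 3 libraries each that the labels call biological replicates. The labels do not say whether PC and PP libraries of one number share a mouse, so a p-value here measures spread between libraries.

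Iron travels in plasma bound to transferrin and enters cells through transferrin receptor 1. Ferritin stores it inside the cell, and ferroportin is the transporter through which it leaves. Hepatocytes secrete hepcidin, a peptide hormone that makes ferroportin-bearing cells take ferroportin in and degrade it. Transferrin receptor 2, Hfe and bone morphogenetic protein (BMP) signals are known to raise hepcidin transcription when iron is plentiful, and interleukin 6 (IL-6) raises it in inflammation through STAT3. When iron is scarce, iron regulatory proteins bind hairpins called iron-responsive elements (IRE). Binding in the 3′ UTR stabilises the Tfrc mRNA, and binding in the 5′ UTR blocks translation of the ferritin and ferroportin mRNAs.

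Total estimated counts ranged from 16245846 to 27449412 per library. Levels are given in CPM, the usual count unit scaled by library size. One library stood apart: Glul, a pericentral gene, had 172 CPM in fasted PC replicate 1 and 3639 and 2353 CPM in replicates 2 and 3 of that group. The periportal genes Sds and Cyp2f2 were highest of the group there, at 112 and 242 CPM. They had 16.2 and 67.8 CPM in replicate 2, and 32.6 and 75.4 CPM in replicate 3. In the groups as a whole, 15 of 16 pericentral markers were listed and summed to 17256 to 33380 CPM in fasted PC and 21098 to 21767 CPM in fed PC. They summed to 417 to 1412 CPM in fasted PP and 1456 to 2392 CPM in fed PP. The 15 periportal markers summed to 11472 to 16458 CPM in fasted PC and 7175 to 8844 CPM in fed PC. Their sums were 22825 to 29529 CPM in fasted PP and 14143 to 18681 CPM in fed PP. Both sums separated the zones within each feeding state, but the periportal sums of fasted PC and fed PP overlapped. The periportal markers differed in this. Pck1 averaged 4524 CPM in fasted PC, 128 CPM in fed PC and 798 CPM in fed PP, whereas Cyp2f2 averaged 129, 95.2 and 1966 CPM in the same order. The 10 hepatocyte markers summed to 98267 to 132020 CPM in fasted PC and 97434 to 104448 CPM in fed PC. In PP the sums were higher, at 166065 to 185058 CPM in fasted and 144337 to 165685 CPM in fed libraries. Alb, the most abundant of them, averaged 76635 CPM in fasted PC and 66772 CPM in fed PC. It averaged 133365 CPM in fasted PP and 114224 CPM in fed PP. Among the 10, 2 were called lower in PC in fasted mice (Alb and Apoc3) and 1 in fed mice (Alb). Their median log2 fold changes, PC over PP, were -0.151 and -0.124. Markers differed in direction, as Apoa2 averaged 6521 CPM in fasted PC and 5726 CPM in fasted PP, and 5597 CPM in fed PC and 4881 CPM in fed PP. The 14 Kupffer cell markers summed to 1.80 to 14.2 CPM, the 14 sinusoidal endothelial markers to 6.61 to 41.3 CPM and the 12 stellate cell markers to 2.78 to 23.0 CPM. The 8 cholangiocyte (bile duct cell) markers separated the zones. They summed to 16.6 to 25.7 CPM in fasted PC, 24.3 to 28.2 CPM in fed PC, 36.3 to 40.9 CPM in fasted PP and 38.0 to 48.1 CPM in fed PP. Among the 4 tested, 2 (Sox9 and Spp1) were called lower in PC averaged over feeding. The part of cholangiocyte RNA in the zone values was not tested. Globin genes differed between libraries: 11 of 12 erythroid markers were listed and summed to 447 CPM in fasted PC replicate 2 and 153 CPM in fasted PP replicate 3, and to at most 51.2 CPM in the other libraries.

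The IRE hairpins described above are shown first, because some of the members are known to carry them. A search of the members' transcripts looked for C, 5 bases, the loop CAGTGN and 5 bases that pair with the first 5, with G-U pairs allowed. It found hairpins in 3 of the 8 members: 4 in the 3′ UTR of Tfrc, 1 in the 5′ UTR of Slc40a1 and 1 in the 5′ UTR of Fth1. Of 21901 protein-coding genes, 272 (1.24%) held a match in their longest coding transcript. Without G-U pairs, 60 (0.274%) did, and the same 3 members were found, with 3 hairpins in Tfrc. The sequences below are 5′ to 3′ in the sense of the mRNA, on GRCm38, with the 6-base loop in capitals. The Tfrc hairpins lie on the plus strand at chr16:32631220-32631246, chr16:32631599-32631625, chr16:32631664-32631690 and chr16:32631711-32631737, that of Slc40a1 on the minus strand at chr1:45925466-45925492 and that of Fth1 on the plus strand at chr19:9982733-9982759.
Tfrc hairpin 1: attatcggaagCAGTGCcttccataat
Tfrc hairpin 2: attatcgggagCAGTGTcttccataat
Tfrc hairpin 3: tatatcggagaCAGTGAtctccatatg
Tfrc hairpin 4: attatcgggaaCAGTGTttcccataat
Slc40a1 hairpin: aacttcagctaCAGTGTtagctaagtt
Fth1 hairpin: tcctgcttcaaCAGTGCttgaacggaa
In these libraries the member with 3′ hairpins fell with fasting, Slc40a1 rose, and Fth1 did not pass the test, as described next. Tfr2, in which no hairpin was found, also rose. The part of the hairpins in these mRNA levels was not tested. A match of letters is a description and not a measurement of binding.

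Fasting lowered Tfrc, the receptor that brings transferrin-bound iron into cells, about 3-fold. Tfrc (ENSMUSG00000022797, chr16:32608920-32632794 on GRCm38, plus strand) had 15.6, 29.5 and 18.1 CPM in fasted PC libraries, against 73.3, 96.1 and 68.0 CPM in fed PC libraries. It had 26.1, 19.5 and 41.9 CPM in fasted PP libraries, against 75.9, 65.5 and 67.3 CPM in fed PP libraries. Every fasted library lay below every fed library, in both zones together, a separation that 15.9% of all tested genes shared. The log2 fold change, fasted over fed, was -1.91 ± 0.29 (SE) in PC and -1.25 ± 0.29 in PP (edgeR adjusted p = 0.0012 and 0.012), and -1.58 ± 0.20 averaged over the zones (edgeR adjusted p = 0.00017), or 3.00-fold lower. The drop in PC and the drop in PP did not differ by a passing test, with a difference of -0.66 (95% interval -1.54 to 0.22; edgeR unadjusted p = 0.13, adjusted p = 0.997). Between PC and PP the Tfrc ranges overlapped in fasted and in fed mice, and the edgeR adjusted p was 0.425 and 0.822. In bulk libraries, fewer cells of a type and less RNA per cell cannot be told apart.

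Tfrc is also high in immature red cells, so the erythroid markers belong beside it. The libraries with most globin RNA, fasted PC replicate 2 and fasted PP replicate 3, had the highest Tfrc of their groups, at 29.5 and 41.9 CPM. In fed PC the library with most, replicate 3 with an erythroid sum of 51.2 CPM, had the lowest Tfrc of its group, at 68.0 CPM. For fasting, the 7 tested erythroid markers had a median log2 fold change of 3.4 in PC and 2.43 in PP. Klf1 was the only one called, higher in each zone, where 21.4% and 17.9% of all tested genes were called. The part of erythroid RNA in these values was not tested. Leaving out fasted PC replicate 2 gave -2.23 for fasting in PC (edgeR adjusted p = 0.0011), and leaving out fasted PP replicate 3 gave -1.60 for fasting in PP (edgeR adjusted p = 0.0033), both further from 0.

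Ferroportin, the only known iron exporter of mammalian cells, moved the other way and also differed between the zones. Slc40a1 (ENSMUSG00000025993, chr1:45908068-45926523, minus strand) had 129, 156 and 159 CPM in fasted PC libraries, against 52.8, 54.9 and 42.1 CPM in fed PC libraries. It had 173, 241 and 225 CPM in fasted PP libraries, against 114, 131 and 98.8 CPM in fed PP libraries. Fed PC was thus lowest, fasted PP highest, and fasted PC and fed PP lay between them with overlapping ranges. Fasting raised it by 1.57 ± 0.16 on the log2 scale in PC (2.96-fold; edgeR adjusted p = 8.3e-05) and by 0.90 ± 0.16 in PP (1.86-fold; edgeR adjusted p = 0.0023). In fed mice it was lower in PC than in PP, with a log2 fold change of -1.20 ± 0.16 (2.29-fold lower; edgeR adjusted p = 0.00096). In fasted mice the groups again did not overlap, but the log2 fold change of -0.53 (95% interval -0.86 to -0.19) did not pass the test (edgeR adjusted p = 0.068), although it did in DESeq2 (-0.53; adjusted p = 0.023). Averaged over feeding, the zone difference was -0.86 ± 0.11 (edgeR adjusted p = 0.00022).

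The larger response of Slc40a1 in PC, 0.67 ± 0.22 on the log2 scale, had an unadjusted p of 0.0095 in edgeR and an adjusted p of 0.997. edgeR called 0 genes for this interaction, with 465 (3.85%) at an unadjusted p under 0.05, and DESeq2 called 11, none of them a member. Without fasted PP replicate 1, which was the lowest fasted PP library at 173 CPM, the zone difference in fasted mice was -0.68 and passed (edgeR adjusted p = 0.028). Without fasted PC replicate 1, the library low in Glul, the log2 fold change was 1.64 for fasting in PC and -0.45 for the zone in fasted mice (edgeR adjusted p = 0.00018 and 0.16). Kupffer cells are known to be rich in ferroportin. Their 14 markers summed to 1.80 to 9.53 CPM in fasted PC, 2.85 to 11.1 CPM in fed PC, 5.49 to 8.57 CPM in fasted PP and 3.71 to 14.2 CPM in fed PP, ranges that overlapped between all groups. The marker Clec4f averaged 0.52 CPM in fasted PC, 0.83 CPM in fed PC, 0.92 CPM in fasted PP and 1.27 CPM in fed PP. Markers differed in pattern, as Cd68 averaged 0.577, 0.27, 0.798 and 0.322 CPM in the same order. No Kupffer marker was at 0 in all 3 libraries of a group. Of the 14, 9 were tested and none was called in any comparison. Their median log2 fold change, PC over PP, was -0.548 in fasted and -0.435 in fed mice. For fasting it was -0.359 in PC and -0.0258 in PP. The part of Kupffer cell RNA in the Slc40a1 values was not tested.

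**Figure D1:**
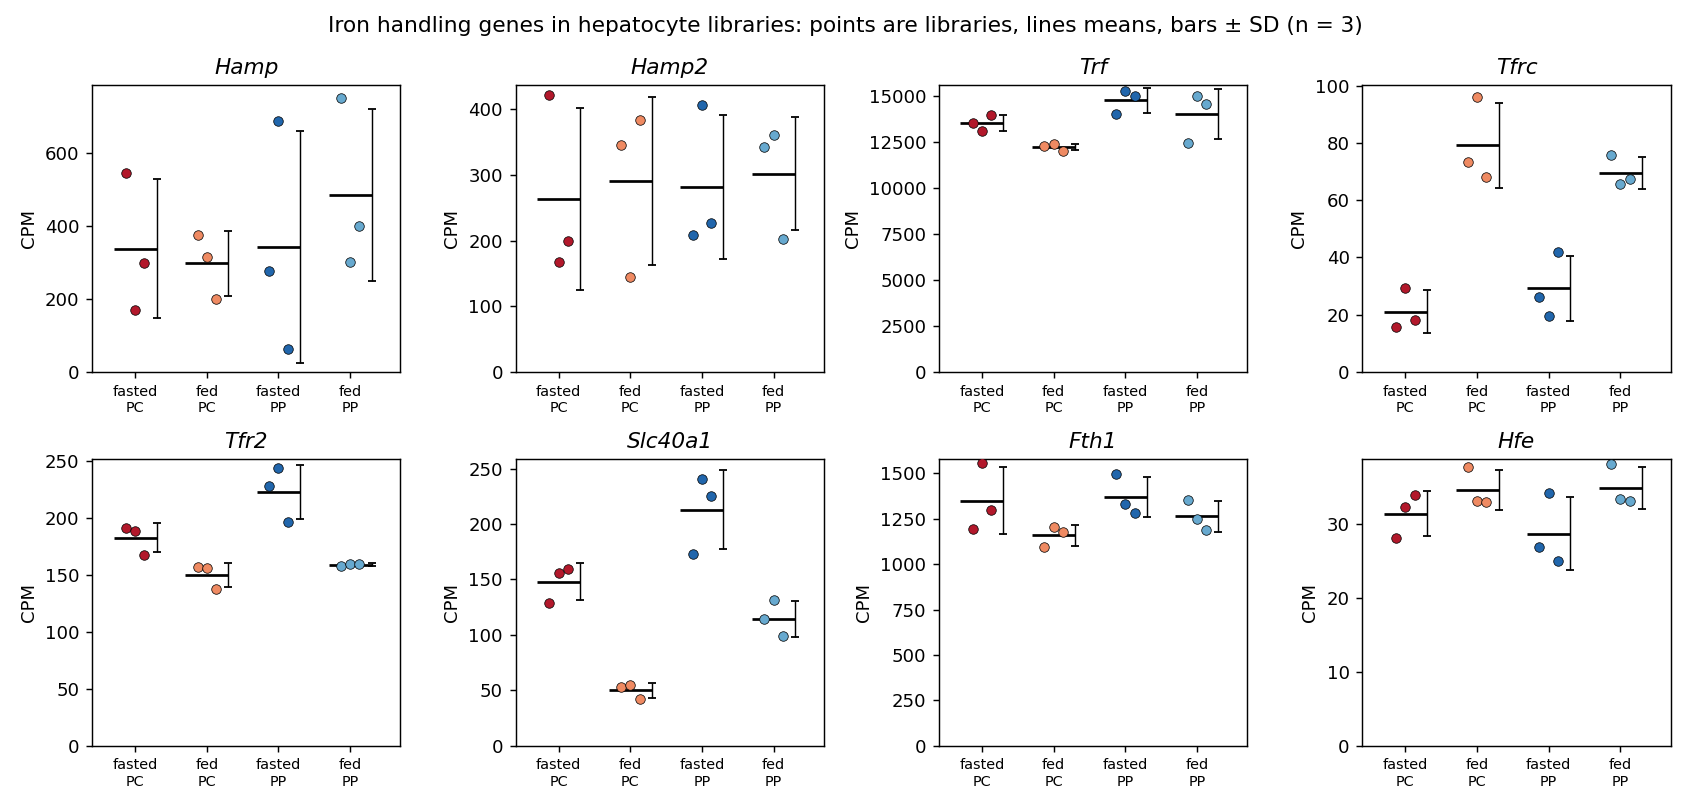
CPM of the 8 genes in each library (points), with the group mean (line) and SD (bar, n = 3), for fasted PC, fed PC, fasted PP and fed PP on axes that start at 0. Tfrc lay at 15.6 to 41.9 CPM in fasted and 65.5 to 96.1 CPM in fed libraries, Slc40a1 was lowest in fed PC at 42.1 to 54.9 CPM, and Hamp spread from 63.4 to 687 CPM within fasted PP.

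Tfr2, a receptor that senses transferrin-bound iron upstream of hepcidin, rose modestly with fasting. Tfr2 (ENSMUSG00000029716, chr5:137569840-137587481, plus strand) had 191, 189 and 168 CPM in fasted PC libraries, against 157, 156 and 138 CPM in fed PC libraries. It had 228, 244 and 197 CPM in fasted PP libraries, against 158, 160 and 160 CPM in fed PP libraries. No fasted library lay below a fed one. The log2 fold change was 0.48 ± 0.11 in PP (edgeR adjusted p = 0.0079), 0.28 ± 0.11 in PC (edgeR adjusted p = 0.075, not passing) and 0.38 ± 0.07 averaged over the zones (1.30-fold; edgeR adjusted p = 0.0017). The difference between the zones' responses, -0.20 (95% interval -0.52 to 0.13), did not pass (edgeR adjusted p = 0.997). The PC value did pass in DESeq2, at 0.28 (adjusted p = 0.041). Between PC and PP libraries the groups did not overlap in either feeding state, with PC lower by less than the test could call (-0.29 in fasted and -0.09 in fed mice; edgeR adjusted p = 0.148 and 0.769).

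Hfe, a membrane protein that partners the transferrin receptors in iron sensing, was low throughout. Hfe (ENSMUSG00000006611, chr13:23702034-23710854, minus strand) had 28.1, 32.3 and 34.0 CPM in fasted PC libraries, against 37.8, 33.2 and 33.1 CPM in fed PC libraries. It had 27, 34.3 and 25.0 CPM in fasted PP libraries, against 38.2, 33.5 and 33.2 CPM in fed PP libraries. The groups overlapped in each comparison. Averaged over the zones, fasted over fed was -0.21 ± 0.09 on the log2 scale (95% interval -0.41 to -0.01; edgeR unadjusted p = 0.039, adjusted p = 0.091) and was not called. Without fasted PP replicate 2, the highest fasted PP library, it was -0.29 and passed (edgeR adjusted p = 0.019).

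Transferrin, the plasma iron carrier and a major secreted product of hepatocytes, was by far the most abundant member. Trf (ENSMUSG00000032554, chr9:103204001-103230444, minus strand) had 13546, 13092 and 14005 CPM in fasted PC libraries, against 12281, 12398 and 12048 CPM in fed PC libraries. It had 14024, 15282 and 15046 CPM in fasted PP libraries, against 12490, 15011 and 14612 CPM in fed PP libraries. Each fasted PC library lay above each fed PC library, whereas the PP groups overlapped. Fasted over fed was 0.15 ± 0.10 on the log2 scale in PC and 0.07 ± 0.10 in PP (edgeR adjusted p = 0.347 and 0.675). PC over PP was -0.13 in fasted and -0.20 in fed mice (edgeR adjusted p = 0.576 and 0.385), with no overlap between the zones in either state. A predicted gene on the same strand, Gm20425, overlaps Trf and shares 2050 of its 3384 stretches of 31 bases, so the model behind the estimated counts may have moved reads between them. Gm20425 itself held 365 to 1428 counts per library.

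The ferritin heavy chain, the subunit that oxidises iron for storage, did not change by the test. Fth1 (ENSMUSG00000024661, chr19:9980598-9985098, plus strand) had 1195, 1558 and 1299 CPM in fasted PC libraries, against 1093, 1205 and 1180 CPM in fed PC libraries. It had 1495, 1333 and 1282 CPM in fasted PP libraries, against 1354, 1251 and 1187 CPM in fed PP libraries. The groups overlapped in each comparison. Fasted over fed was 0.17 ± 0.09 averaged over the zones (95% interval -0.02 to 0.36; edgeR adjusted p = 0.15). Of its 3578 stretches of 31 bases, 116 (3.24%) occur in other genes, mostly Gm6977. Its partner Ftl1, the ferritin light chain, had -0.07 ± 0.10 (edgeR adjusted p = 0.592).

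Hepcidin itself varied more between libraries of one group than between groups. Hamp (ENSMUSG00000050440, chr7:30942368-30944032, minus strand) encodes the hormone. It had 545, 170 and 298 CPM in fasted PC libraries, against 376, 316 and 200 CPM in fed PC libraries. It had 277, 687 and 63.4 CPM in fasted PP libraries, against 750, 301 and 401 CPM in fed PP libraries. All 4 groups overlapped, and within fasted PP the highest library stood 10.8-fold above the lowest. The edgeR biological coefficient of variation of Hamp was 0.607, above that of 96.5% of tested genes, whereas those of Trf, Tfr2, Slc40a1, Fth1 and Hfe lay between 0.113 and 0.148. Fasted over fed was 0.18 in PC (95% interval -1.50 to 1.86) and -0.50 in PP (-2.18 to 1.18) on the log2 scale. PC over PP was -0.02 in fasted mice (-1.70 to 1.66) and -0.70 in fed mice (-2.39 to 0.98). The edgeR adjusted p of Hamp was 0.892, 0.703, 0.995 and 0.733 in that order of comparisons. Intervals this wide hold large changes in either direction, so the data do not show that hepcidin was unchanged.

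Hamp2, a second mouse hepcidin gene not known to lower iron in plasma, lies beside Hamp on chromosome 7. Hamp2 (ENSMUSG00000056978, chr7:30922372-30924681, minus strand) had 422, 168 and 199 CPM in fasted PC libraries, against 345, 144 and 383 CPM in fed PC libraries. It had 209, 407 and 227 CPM in fasted PP libraries, against 342, 360 and 203 CPM in fed PP libraries. Again all groups overlapped. Its coefficient of variation was 0.386, above that of 88.3% of tested genes. Averaged over the zones, fasted over fed was -0.12 for Hamp2 (95% interval -0.84 to 0.60) and -0.16 for Hamp (-1.35 to 1.03), with edgeR adjusted p = 0.798 and 0.841.

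The close relation of the hepcidin genes limits how well their reads can be told apart. Of the 380 stretches of 31 bases in Hamp transcripts, 128 (33.7%) also occur in Hamp2, and these are 23.1% of those of Hamp2. The sum of both genes ranged from 338 to 967 CPM in fasted PC, 460 to 721 CPM in fed PC, 291 to 1094 CPM in fasted PP and 604 to 1093 CPM in fed PP, so the sum spread widely too. Hamp made up 21.8% of their joint counts in fasted PP replicate 3, 34.3% in fed PC replicate 3 and 45.6% to 68.8% in the other libraries. The library kit does not mark strand, and the bounds of the annotated gene Gm44662 overlap both genes on the opposite strand. Gm44662 is not listed in the counts, and overlap of its exons with theirs was not tested. Whether reads from that strand entered the values is therefore not known.

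The 150 bases before a transcript start of each hepcidin gene are shown because BMP and STAT3 inputs are known to act there on Hamp. For Hamp2 the window lies within the annotated bounds of the gene, chr7:30922372-30924681. They come from RefSeq's GRCm38.p6 promoter windows, on the minus strand, at chr7:30944033-30944182 for Hamp and chr7:30924182-30924331 for Hamp2, ending next to the start of a GENCODE transcript. Capitals mark GGCGCC, the core of a BMP-responsive element, and TTCNNNGAA, a palindrome of the STAT type, where they occur. Both motifs read the same on either strand, and they do not overlap in these windows.
Hamp: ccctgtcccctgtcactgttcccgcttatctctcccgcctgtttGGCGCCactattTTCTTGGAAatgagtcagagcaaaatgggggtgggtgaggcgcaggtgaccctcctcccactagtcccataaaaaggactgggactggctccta
Hamp2: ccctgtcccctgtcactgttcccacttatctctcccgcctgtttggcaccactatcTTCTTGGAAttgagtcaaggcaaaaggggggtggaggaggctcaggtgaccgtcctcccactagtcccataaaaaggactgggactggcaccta
The windows are identical at 138 of 150 positions (92%). Hamp holds GGCGCC 106 bases and TTCTTGGAA 94 bases before its start, and Hamp2 holds TTCTTGGAA at the same 94 bases. Counted from 1 at the 5′ end of the window, the substitution G48A from Hamp to Hamp2 falls inside GGCGCC. Of the 8 members, 6 have a window in the RefSeq table. Of 32851 windows of the same 150 bases in the RefSeq table, 7.01% hold GGCGCC and 4.09% hold TTCNNNGAA. A match is not a site, and the absence of these letters from the Hamp2 window says nothing about a factor.

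Hamp was set beside 12 genes of its inputs and of the members, and the values differed widely. With group means removed, log2 CPM of Hamp had a Pearson r of 0.76 with Smad7 and 0.75 with Id1, both BMP-SMAD targets, over 12 libraries. Other genes of that pathway had lower values, with r = 0.44 for Bmp6, 0.30 for Smad6 and -0.02 for Atoh8. On the IL-6 side r was 0.18 for Il6ra, -0.32 for Saa1 and -0.37 for Socs3, and among the members it was 0.71 for Tfr2, 0.60 for Hfe, 0.43 for Hamp2 and -0.05 for Slc40a1. The 12 genes were chosen after values had been seen, and all points share libraries and depth, so the values are descriptions. Leaving out fasted PP replicates 3 and 2, where Hamp lay farthest from its group, gave 0.50 for Smad7, 0.51 for Id1, 0.29 for Tfr2, 0.05 for Hfe, 0.08 for Bmp6 and 0.31 for Hamp2, all lower than with them. It gave 0.59 for Il6ra and 0.47 for Atoh8, both higher than with them, so the order of the 12 genes changed without those libraries. The group means removed were still those over all 12 libraries. The fasted PP library that stayed thus kept a deviation shaped by the 2 left out. Smad7 itself had 11.5, 16.4 and 4.47 CPM in fasted PP replicates 1 to 3, and Id1 had 8.07, 10.4 and 2.69 CPM. Fasted PP replicate 2, with 687 CPM of Hamp, also had the highest sum of endothelial markers, at 41.3 CPM, and 2.46 CPM of Bmp2, which liver endothelial cells are known to secrete and which stood at 0.92 CPM or less in every other library. The endothelial sum was 25.2 CPM in fed PP replicate 1, with 750 CPM of Hamp, and 10.4 CPM in fasted PC replicate 1, with 545 CPM of Hamp. The part of endothelial RNA in the Hamp values was not tested.

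**Figure D2:**
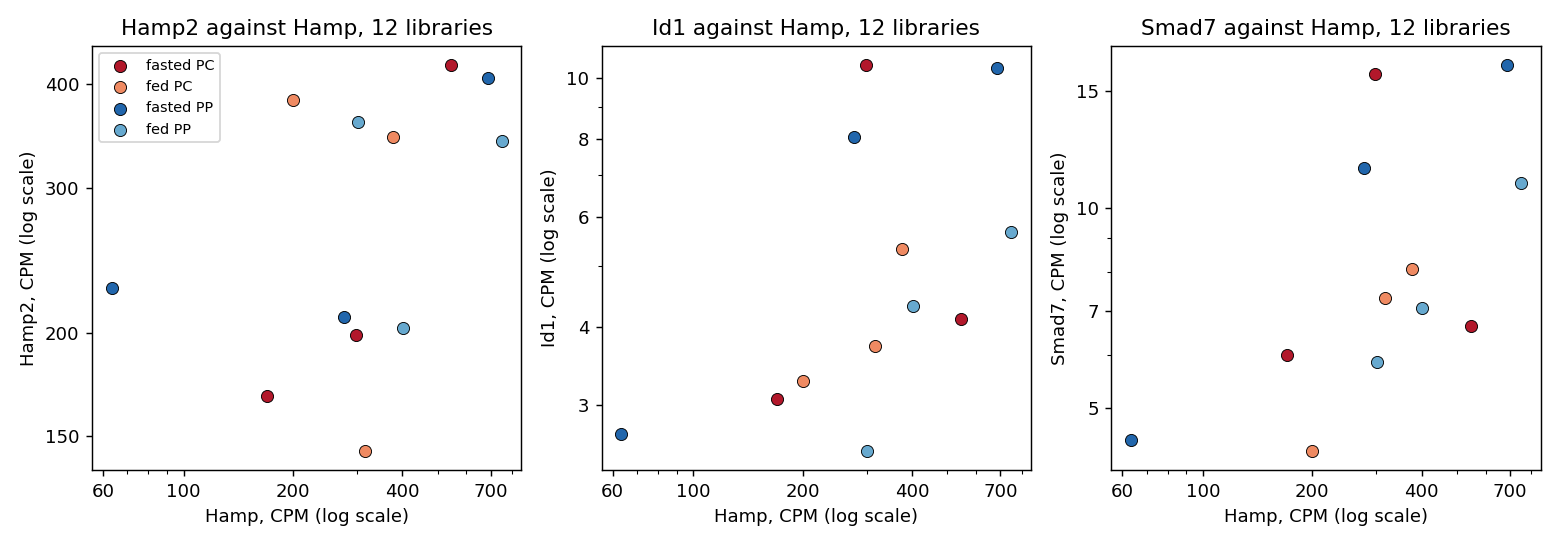
CPM of Hamp2, Id1 and Smad7 (vertical axes, log scale) against CPM of Hamp (horizontal axis, log scale) in 12 libraries coloured by group. The lowest Hamp library, fasted PP replicate 3 at 63.4 CPM, had 2.69 CPM of Id1 and 4.47 CPM of Smad7, whereas Hamp2 stood at 227 CPM there.

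Across the members, 0 of 8 passed the test in fasted PC against fasted PP, where 6.4% of all tested genes did, and 1 of 8 in fed PC against fed PP, where 4.72% did. Fasting called 2 of 8 in PC and 3 of 8 in PP, where 21.4% and 17.9% of all genes were called, and 3 of 8 averaged over the zones, where 35.3% were. The zone averaged over feeding called 1 of 8, where 13% of all genes were called. With 8 members these counts are too small to set the members apart from all genes. Groups did not overlap for 4 of 8 members for fasting in PC and 3 of 8 for fasting in PP, where 41.7% and 34.6% of all genes did not overlap. For the zone, the groups were apart for 3 of 8 members in fasted and 3 of 8 in fed mice, against 22% and 26% of all genes, and for the zone averaged over feeding 0 of 8 did, against 5.37% of all genes. The median log2 fold change of the members for fasting was 0.16 in PC and -0.01 in PP, beside 0.00 for all genes in each. The called members are Tfrc, Tfr2 and Slc40a1, whose products bind transferrin or export iron, and none of Hamp, Hamp2, Trf, Fth1 and Hfe was called in any of the 7 comparisons.

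**Figure D3:**
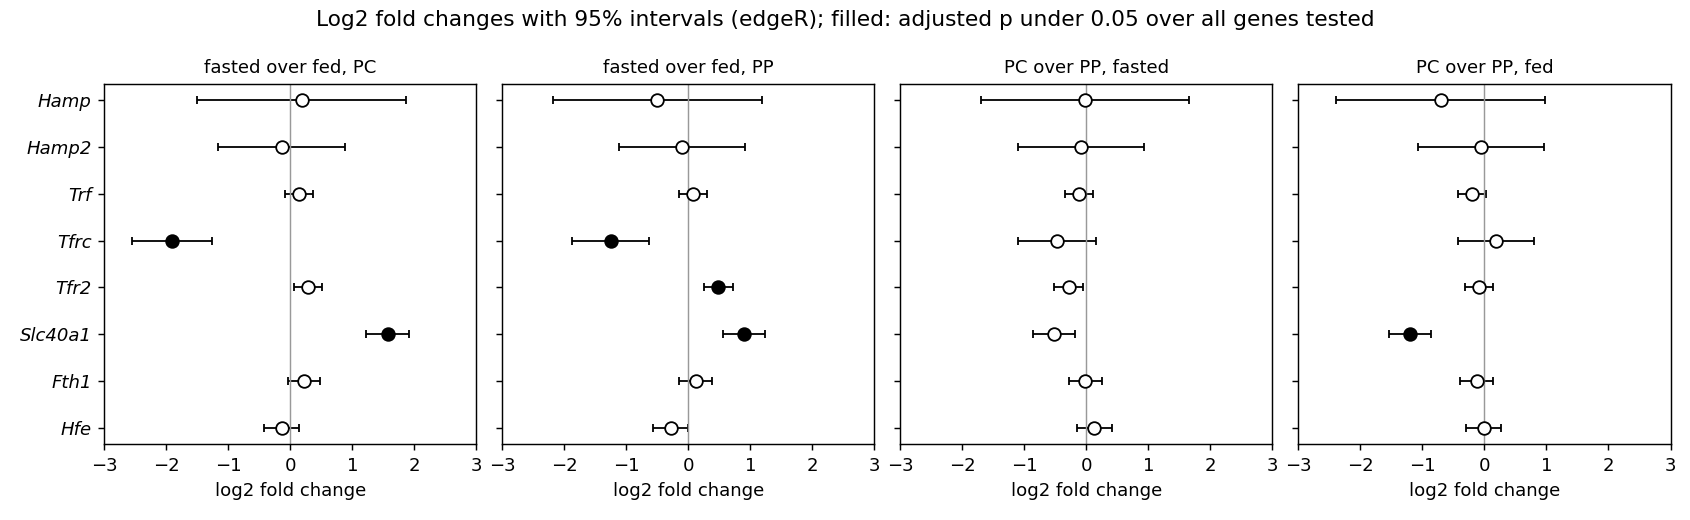
Log2 fold change of each member with its 95% interval from edgeR, fasted over fed in PC and PP and PC over PP in fasted and fed mice, with filled points for an adjusted p under 0.05. The filled points are Tfrc (-1.91 and -1.25) and Slc40a1 (1.57 and 0.90) for fasting in PC and PP, Tfr2 (0.48) for fasting in PP and Slc40a1 (-1.20) for the zone in fed mice, and the intervals of Hamp are the widest.

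Levels can be compared between genes only per length. Dividing CPM by the summed exon length in kilobases gave means over 12 libraries of 4112 CPM per kb for Trf, 891 ± 499 (SD) for Hamp, 487 ± 174 for Hamp2, 371 ± 38.8 for Fth1, 41.2 ± 7.35 for Tfr2, 14.6 ± 7.13 for Slc40a1, 9.09 ± 1.11 for Hfe and 8.04 ± 4.47 for Tfrc. Hamp, Hamp2 and Fth1 overlapped in range, as did Slc40a1, Hfe and Tfrc, while on this length Trf stood above and Tfr2 between these sets without overlap. With the longest transcript as the length, the order of Hfe and Tfrc turned, with means of 9.09 CPM per kb for Hfe and 10.2 for Tfrc. Slc40a1 then averaged 33.4 CPM per kb, and its range of 10.7 to 61.4 overlapped that of Tfr2, 44.9 to 79.4.

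The genes whose pattern over the 12 libraries was most like a member were taken by Pearson r of log2 CPM, among tested genes that averaged 5 CPM or more. Tfrc was followed most closely by Pde12 (r = 0.967), Hspa13 (0.962) and Mak16 (0.961), and Slc40a1 by Slc25a47, Ctsz and Apoa5 (0.953, 0.953 and 0.952). Tfr2 was followed by Ankrd28 (0.962), Cisd2 (0.955) and Atg2a (0.945). The closest 3 genes to Trf included Nadsyn1 (0.931) and Vdac2 (0.901), and Fth1 was followed by Bad (0.911), Rab4a (0.907) and Rnf126 (0.898). The values were lower for Hamp2 with Cyp2b9 (0.885), Galm (0.818) and Arl6ip5 (0.793), for Hfe with Zfp35 (0.88), Sar1a (0.876) and Sec11c (0.867), and for Hamp with Mrps25 (0.86), Tardbp (0.817) and Osgep (0.804). By Spearman rho, 9 of the 24 closest genes were again among the closest 3. The 12 points share group differences and depth, so these are descriptions.

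The wider iron pathway was covered by 11 lists that name 129 genes other than the members, of which 118 were tested. Averaged over the zones, fasting raised 29 of the 118 and lowered 15, which is 37.3% beside 35.3% of all tested genes. Their median log2 fold change was 0.11, beside 0.00 for all genes. Averaged over feeding, 10 were higher and 11 lower in PC than in PP, which is 17.8% beside 13% of all genes. Leaving out 1 library gave 21 to 27 genes raised and 10 to 14 lowered by fasting, and 7 to 11 higher and 9 to 14 lower in PC. Values below are averages over the zones for fasting and over feeding for the zone unless another group is named.

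The inputs of hepcidin transcription came first. Of 24 tested genes of BMP-SMAD control, fasting raised 6 and lowered 4, and none was called between the zones. Over all tested genes, fasting called 35.3% and the zone 13%, in either direction. Atoh8, a transcription factor of the BMP pathway, rose, at 1.06 ± 0.24 (log2; edgeR adjusted p = 0.0052), with 14.3, 18.0 and 15.1 CPM in fasted PC libraries, against 6.64, 5.98 and 2.99 CPM in fed PC libraries. It had 15.3, 10 and 16.0 CPM in fasted PP libraries, against 14.4, 8.02 and 5.93 CPM in fed PP libraries, where the groups overlapped and the test was not passed (0.54; edgeR adjusted p = 0.303). Smad9, a BMP-responsive SMAD, rose by 0.73 ± 0.18 (edgeR adjusted p = 0.0077). It was called in PC but not in PP, where it averaged 13.6 CPM in fasted and 10.4 CPM in fed mice. Furin, named after its values were seen, rose by 0.454 (edgeR adjusted p = 0.00101). It was the only gene of this list called in PC and in PP. The 4 that fell were Acvr1, a BMP receptor, at -0.46, Smad5, a BMP-responsive SMAD, at -0.22, and the BMP targets Smad6 at -0.60 and Id2 at -0.66 (edgeR adjusted p = 0.0036, 0.023, 0.041 and 0.041), of which all but Id2 are named after their values were seen. Id1 had 4.12, 3.07 and 10.5 CPM in fasted PC libraries, against 5.33, 3.72 and 3.28 CPM in fed PC libraries, and like Smad7, Bmp6, Tmprss6 (a protease that cuts hemojuvelin) and Hfe2 (hemojuvelin, the BMP coreceptor) was not called in any comparison. These counts were unstable: 3 were raised when fed PC replicate 3, fed PP replicate 2 or 3, or fasted PC replicate 1 or 2 was left out. Only 1 was lowered without fed PC replicate 1 or 2, and 2 without replicate 1 of fed PP or of fasted PC or without replicate 3 of fasted PP.

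Among 7 tested genes of the IL-6 and STAT3 input, fasting raised 3 and lowered 1, where 35.3% of all tested genes were called. Il6ra, the IL-6 receptor, had 35.8, 36.8 and 39.9 CPM in fasted PC libraries, against 17.1, 15.2 and 13.5 CPM in fed PC libraries. It had 28.3, 24.0 and 26.3 CPM in fasted PP libraries, against 14.8, 11.3 and 10.9 CPM in fed PP libraries, and rose by 1.19 ± 0.10 (edgeR adjusted p = 4.5e-06). Il6ra was also higher in PC than in PP, at 0.415 (edgeR adjusted p = 0.012), the only gene of this list called for the zone. Stat3, its transcription factor, rose by 0.48 ± 0.09 (edgeR adjusted p = 9e-04), and Il22ra1, a receptor of interleukin 22, by 0.94 ± 0.24 (edgeR adjusted p = 0.0089). Jak1, a kinase bound to these receptors, fell, at -0.51 ± 0.07 (edgeR adjusted p = 0.00017), and Il6st, the signalling chain of the IL-6 receptor, had -0.17 ± 0.07 and was not called (edgeR adjusted p = 0.101), both named after their values were seen. Socs3, a STAT3 target that damps the signal, was not called in any comparison, with 5.77, 23.8 and 6.54 CPM in fasted PC libraries and 3.80, 5.04 and 5.49 CPM in fed PC libraries.

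Acute phase proteins, which share the IL-6 input with hepcidin, leaned to the periportal zone. Of 17 tested genes, 7 were lower in PC than in PP and 0 higher, with a median log2 fold change of -0.45. Of all tested genes, 13% were called for this comparison in either direction, with a median of -0.0093. The IL-6 receptor Il6ra was called in the other direction, and the cause of the lean was not tested. Hpx, which carries haem in plasma, had -1.45 ± 0.11 (edgeR adjusted p = 7.6e-06). Lcn2, which binds bacterial iron carriers, had -1.46 ± 0.21 (edgeR adjusted p = 0.00056). In fasted mice it had 3.30, 3.73 and 5.15 CPM in PC libraries, against 15.1, 24.3 and 23.4 CPM in PP libraries (-2.36 ± 0.30; edgeR adjusted p = 0.00077). In fed mice it had 3.16, 3.06 and 5.54 CPM in PC libraries, against 7.55, 4.18 and 5.41 CPM in PP libraries, and was not called (edgeR adjusted p = 0.389). The 7 became 11 without fed PP replicate 3, and the count ranged from 6 to 11 when 1 library was left out. Fasting raised 5 of the 17, where 35.3% of all tested genes were called in either direction. Leaving out 1 library gave 3 to 7 raised, with 3 for any library other than fed PP replicate 2 or fasted PC replicate 2. Fasting lowered 0, or 1 when fed PC replicate 3 was left out and 2 when fed PP replicate 3 was.

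Of 8 other transcription factors known to act on hepcidin, fasting raised 3, where 35.3% of all tested genes were called in either direction. Creb3l3, a membrane-bound factor of the liver, had 304, 278 and 352 CPM in fasted PC libraries, against 238, 227 and 237 CPM in fed PC libraries, and rose by 0.47 ± 0.07 (edgeR adjusted p = 0.00039). Ppargc1a, a coactivator of the fasting response, rose by 1.54 ± 0.28 (edgeR adjusted p = 0.0017) and Foxo3 by 0.46 ± 0.10 (edgeR adjusted p = 0.0037). It lowered 1 of the 8, Cebpa, a liver-enriched factor, and this count was 0 without fed PC replicate 1 and 2 without replicate 1 of fed PP or of fasted PP. Nr0b2, a nuclear corepressor, was lower in PC than in PP in fasted mice at -1.39 ± 0.23 (edgeR adjusted p = 0.003).

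Among 13 tested genes of iron uptake and export, Steap4 fell with fasting and Flvcr2 rose. Steap4, which reduces iron and copper, had 42.6, 37.9 and 39.8 CPM in fasted PC libraries, against 87.5, 74.8 and 90.6 CPM in fed PC libraries, and fell, at -1.07 ± 0.08 on the log2 scale (edgeR adjusted p = 3.1e-06). It was higher in PC than in PP at 0.50 ± 0.08 (edgeR adjusted p = 0.0012). Steap2 was lower in PC than in PP at -1.28 ± 0.10 (edgeR adjusted p = 1.1e-05). Flvcr2, a transporter of the FLVCR family, rose with fasting by 2.27 ± 0.26 (edgeR adjusted p = 4.1e-05), with 10.2, 16.0 and 14.0 CPM in fasted PC libraries, against 3.62, 2.89 and 2.74 CPM in fed PC libraries. Slc11a2 and Slc39a14, importers of iron not bound to transferrin, were not called for fasting (-0.24 and -0.02; edgeR adjusted p = 0.254 and 0.891). Fasting raised 4 of the 13 and lowered 1, and only 2 were raised when fed PC replicate 2 or 3, fed PP replicate 2, replicate 1 of fasted PC, or replicate 1 or 3 of fasted PP was left out.

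Inside the cell, the chaperones that deliver iron to ferritin were called in opposite directions. Of 6 tested genes of storage, Pcbp2 rose by 0.91 ± 0.15 (edgeR adjusted p = 0.00056) and Pcbp1 fell, at -0.44 ± 0.07 (edgeR adjusted p = 0.00035). Of the iron regulatory proteins that bind the hairpins shown above, Aco1 had -0.29 ± 0.08 for fasting (edgeR adjusted p = 0.018). This call was lost without fed PC replicate 3 (edgeR adjusted p = 0.053), and Ireb2 was not called. Among 10 tested mRNAs known to carry an IRE, 3 of them members, Tfrc fell and Slc40a1 and Cdc42bpa rose with fasting, the last a kinase at 0.35 ± 0.08 (edgeR adjusted p = 0.0063). For these lists too, the share of all tested genes called for fasting was 35.3%.

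Of 9 tested genes of haem synthesis, 4 were higher in PC than in PP and 0 lower. The share of all tested genes called for this comparison was 13%, in either direction. Cpox, coproporphyrinogen oxidase, had 228, 277 and 310 CPM in fasted PC libraries, against 123, 163 and 143 CPM in fasted PP libraries, and a zone value of 0.94 ± 0.10 (edgeR adjusted p = 5.1e-05). Alas1, the rate-limiting enzyme in liver, was not called in any comparison. Fasting lowered 4 of the 9 and raised 0, where 35.3% of all tested genes were called in either direction. The 4 became 2 without fed PC replicate 3, replicate 2 or 3 of fed PP, or replicate 1 or 3 of fasted PP. Of haem breakdown, Hmox2, the constitutive haem oxygenase, rose with fasting by 0.70 ± 0.08 (edgeR adjusted p = 3e-05), and Blvrb, a biliverdin reductase, was higher in PC than in PP at 1.92 ± 0.21 (edgeR adjusted p = 0.00015). Of 20 tested genes of mitochondrial iron and iron-sulphur clusters, fasting raised 3 and lowered 2, beside 35.3% of all tested genes called. Slc25a37, which brings iron into mitochondria, fell, at -0.57 ± 0.13 (edgeR adjusted p = 0.0038), as did Abcb10, which is known to stabilise it, at -0.65 ± 0.12 (edgeR adjusted p = 0.00093), while Lyrm4, of the cluster assembly complex, rose by 0.58 ± 0.12 (edgeR adjusted p = 0.0027).

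**Figure D4:**
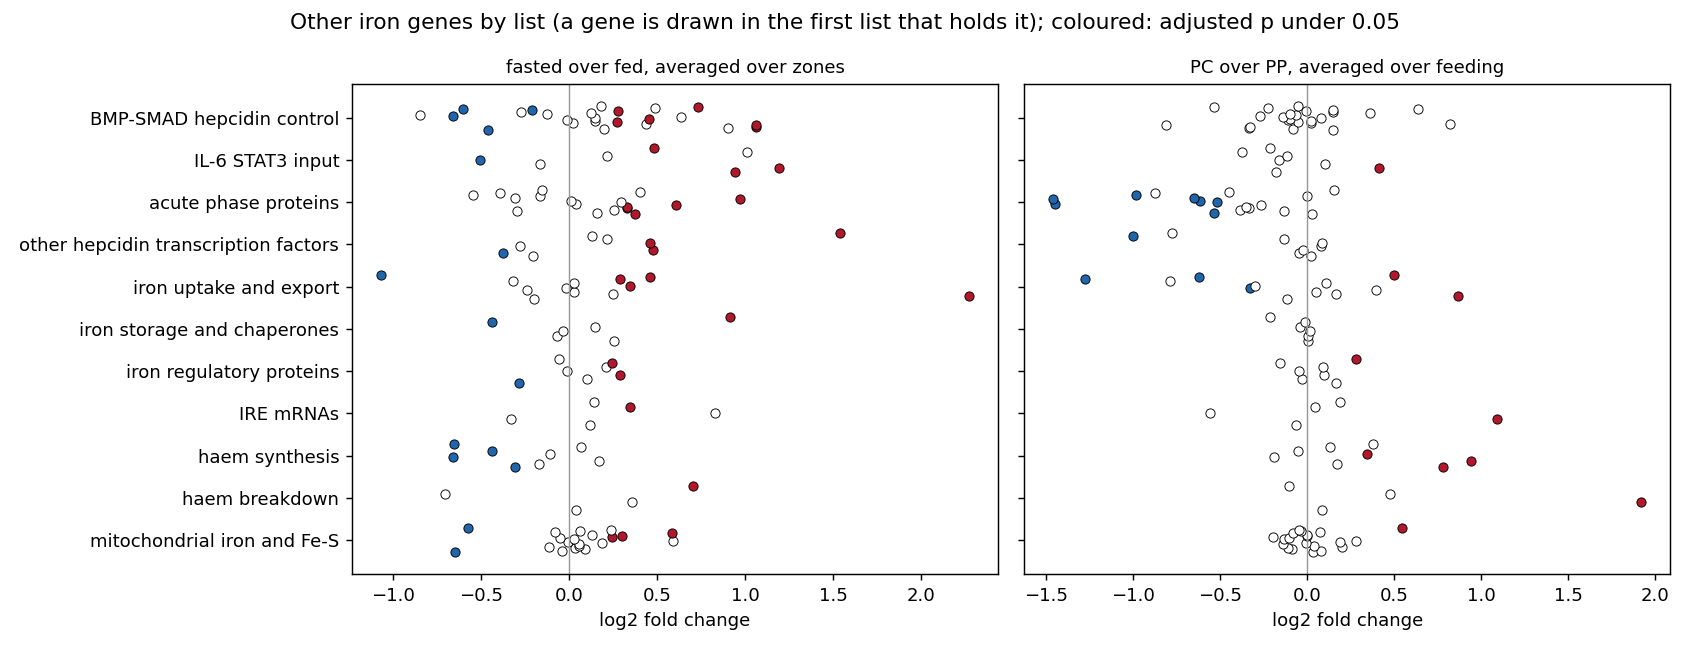
Log2 fold change of 118 tested iron pathway genes other than the members, by list, for fasted over fed averaged over the zones (left) and PC over PP averaged over feeding (right), with coloured points for an edgeR adjusted p under 0.05 (red higher, blue lower). Flvcr2 stands farthest to the right for fasting at 2.27 and Blvrb for the zone at 1.92. Of the 17 acute phase genes, 7 were called lower in PC, where 13% of all tested genes were called in either direction.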

How the data were processed

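The authors deposited estimated counts per gene for 12 libraries. The submitters' processing notes name kallisto 0.46.0 and mm10, and the summing of transcripts to genes is not given in the sources used here. Values were rounded to whole numbers, and 28.0% to 32.8% of a library's values had not been whole. Symbols came from a table of gene names and coordinates from GENCODE M21 (GRCm38), and 464 identifiers had no symbol. Hjv, Skp1, Ciao3 and Fdx2 are listed as Hfe2, Skp1a, Narfl and Fdx1l.

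The main test was the quasi-likelihood test of edgeR 4.0.16 (R 4.3.3) with 4 group means over 12 libraries (filterByExpr, TMM, robust, 8 residual degrees of freedom), with Benjamini-Hochberg adjustment over 12086 genes and calls at an adjusted p under 0.05. DESeq2 1.42.0 was run as an alternative. The fit was tested on simulated data. Total depth was 16245846 to 27449412 estimated counts, and no libraries agreed within sampling noise. The labels do not pair libraries, and no replicate block was used in the main fit.

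The members and lists were chosen with earlier results of these data known. Beyond the members, fixed regulators and up to 3 called genes per list with a mean of at least 5 CPM were named. Protein sequences were not used here, and 1 gene of like pattern to Trf is not reported here.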

Additional observations from a re-analysis of the deposited data

How the results depend on the processing

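No call of a member was lost under any alternative: 924 member values kept direction and side of the threshold, 7 newly passed and 53 turned sign, each of them uncalled. With the replicate number as a block, 1 member (Slc40a1, -0.52, adjusted p = 0.047) was called for the zone in fasted mice, Tfr2 passed for fasting in PC (0.29, adjusted p = 0.048) and Hamp turned to 0.14 for the zone in fasted mice. The labels give no pairing, and whether the numbers pair libraries is unsettled: deviations of same-numbered PC and PP libraries of 1 feeding state correlated over 0.1 in 3 of 6 pairs (-0.12 to 0.27), and 7 of 12 libraries correlated best with their own number. DESeq2 called 929 genes for the zone in fed mice, 1 member for the zone in fasted mice and 11 genes for the interaction. Without the filter on low counts the interaction had 1 gene and Hfe turned to 0.0019 for the zone in fed mice. A fit on only the groups compared called 376 genes for the zone in fasted mice. Leaving out 1 library gave 292 to 701 genes for the zone in fed mice, 386 to 1005 for the zone in fasted mice (0 to 1 member), 1593 to 2618 for fasting in PC, 1405 to 2414 for fasting in PP and 0 to 2 for the interaction. Log2 fold changes that turned sign ranged, for Hamp, from -0.56 to 0.99 (zone, fasted), -0.37 to 0.50 (fasting, PC), -1.51 to 0.0090 (fasting, PP), -0.68 to 0.087 (fasting averaged) and -0.62 to 0.16 (zone averaged). For Hamp2 they ranged from -0.30 to 0.29 (zone, fed), -0.62 to 0.27 (zone, fasted), -0.68 to 0.11 (fasting, PC), -0.47 to 0.093 (fasting, PP), -0.59 to 0.31 (interaction), -0.39 to 0.0027 (fasting averaged) and -0.33 to 0.12 (zone averaged). Fth1 ranged from -0.13 to 0.055 (zone, fasted) and -0.0096 to 0.16 (interaction), Hfe from -0.076 to 0.078 (zone, fed), Trf from -0.010 to 0.12 (interaction) and Tfrc from -0.30 to 0.039 (zone averaged). The cause of these shifts was not tested. Counts of iron lists without a library were added after seeing the data.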
